A study of Mus musculus with 6 samples.

Results

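*Hes5* and 9 other genes of the Notch pathway (*Hes1*, *Hes6*, *Hey1*, *Notch1*, *Notch2*, *Dll1*, *Dll3*, *Jag1* and *Rbpj*) were followed in primary mouse neurons, 10 of the 50508 gene symbols listed in the data. *Hes5* was picked because its level was lower in sgKcna1 neurons with little spread between libraries, so its difference between the groups is given as a description and was not tested. The other members were added by symbol as parts of the same pathway. All 10 members were above 0 in at least 1 library, as were 19504 genes in all. RNA from cultures labelled as hippocampal neurons was sequenced in 3 libraries transduced with a guide against the *Kcna1* promoter (sgKcna1, Kcna1-dCas9A) and 3 with a guide against LacZ (sgLacZ, Ctrl-dCas9A). Cells of both groups carried the same lentiviral activator, a nuclease-dead Cas9 fused to a VP160 domain under the *Eef1a1* (Ef1alpha) promoter, which is not restricted to neurons. The cells came from newborn C57Bl/6J pups and were transduced on the day after plating. The study's methods name the cortex, where the labels name the hippocampus, and give more than one culture age for the RNA. The study speaks of independent repetitions in general, but neither it nor the labels say whether the 3 libraries of a group came from separate cultures, so that the p-values measure only the spread between these libraries.

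Notch signalling passes between touching cells. A ligand such as Dll1 or Jag1 on one cell binds a Notch receptor on its neighbour, proteases release the receptor's intracellular domain, and this domain joins the DNA-binding protein Rbpj in the nucleus to switch on repressors of the Hes and Hey families. In the developing brain *Hes1* and *Hes5* are active in radial glia and later in astrocytes, where they hold back the proneural factors that drive neuronal differentiation, while *Hes6* is found in cells that become neurons and can oppose Hes1.

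The promoter of *Hes5* is shown because Rbpj binds the letters TGGGAA, and those of *Hes6* and *Dll3* because their levels are set beside that of *Hes5* in what follows. Each run holds the 250 bases before a transcription start, 5′ to 3′ on the gene's strand (RefSeq, GRCm38.p6), and capitals mark TGGGAA or its reverse complement TTCCCA. The windows are those of *Hes5* at chr4:154960673-154960922 on the plus strand, of *Hes6* at chr1:91414039-91414288 and, for its second start, chr1:91413223-91413472, both on the minus strand, and of *Dll3* at chr7:28301786-28302035 on the minus strand.
Hes5: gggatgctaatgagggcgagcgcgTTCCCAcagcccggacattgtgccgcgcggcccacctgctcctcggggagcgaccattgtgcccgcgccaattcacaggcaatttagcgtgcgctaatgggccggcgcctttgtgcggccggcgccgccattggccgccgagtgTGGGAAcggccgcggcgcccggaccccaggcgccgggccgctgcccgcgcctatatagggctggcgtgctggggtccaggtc
Hes6, start 1: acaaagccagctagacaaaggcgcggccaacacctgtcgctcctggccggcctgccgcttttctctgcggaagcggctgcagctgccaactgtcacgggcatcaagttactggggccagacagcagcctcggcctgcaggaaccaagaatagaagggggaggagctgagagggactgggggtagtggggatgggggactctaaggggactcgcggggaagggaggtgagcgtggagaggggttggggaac
Hes6, start 2: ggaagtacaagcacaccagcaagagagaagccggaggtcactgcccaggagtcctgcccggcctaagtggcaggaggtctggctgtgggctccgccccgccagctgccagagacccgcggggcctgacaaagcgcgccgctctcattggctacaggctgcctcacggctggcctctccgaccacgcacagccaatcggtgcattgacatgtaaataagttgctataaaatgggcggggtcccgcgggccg
Dll3: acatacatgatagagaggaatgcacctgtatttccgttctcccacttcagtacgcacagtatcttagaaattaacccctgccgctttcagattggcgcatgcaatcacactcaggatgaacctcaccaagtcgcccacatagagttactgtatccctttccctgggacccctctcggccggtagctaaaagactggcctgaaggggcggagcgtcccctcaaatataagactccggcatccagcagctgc
The *Hes5* window held 2 matches, TTCCCA beginning 226 bases before the start and TGGGAA beginning 82 bases before it, on opposite strands. Both were also matches to the longer form GTGGGAA. Of 32851 windows of this length in the RefSeq table, 2.77% held at least 2 matches to TGGGAA on either strand and 0.161% at least 2 to GTGGGAA. Neither *Hes6* window, nor those of *Dll3*, *Dll1*, *Jag1*, *Notch1* and *Notch2*, held TGGGAA, which was present at least once in 21.6% of all windows. The 2 overlapping windows of *Rbpj* held 2 and 1 matches, none of them to GTGGGAA. The N-box CACNAG, a sequence that Hes proteins bind, was present in 36.7% of all windows, once each in the second window of *Hes6* and in those of *Notch1* and *Notch2*, and in neither the *Hes5* nor the *Dll3* window. Windows for *Hes1* and *Hey1* were not analysed here. A match of letters does not show that a factor was bound in these neurons.

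Values are whole numbers that the authors' processing had scaled to nearly the same total in each library, from a 3′ kit that reads the end of each transcript, and are called scaled values here. *Kcna1* itself was at 16 in each sgLacZ library and at 68, 47 and 65 in the sgKcna1 libraries, a log2 fold change of 1.83 (SE 0.16, adjusted p = 0.0345 from limma), in the direction the labels give. This call was lost when any library other than sgLacZ 3 was left out (adjusted p from 0.112 to 0.143 in limma). The sgLacZ 3 library stood apart from the other controls. Among 7459 genes with a mean of at least 10 and no tie it was the sgLacZ library nearest to the sgKcna1 mean in 64.2%, against 17.4% for sgLacZ 1 and 18.5% for sgLacZ 2, and without it the number of genes past the threshold was 2711 in place of 226. The defining neuronal genes were well above 0 in all libraries. The 9 neuron markers summed to between 6220 and 7188 in sgLacZ and between 7339 and 8735 in sgKcna1. The higher sum in sgKcna1 came from *Tubb3*, a neuronal tubulin, at 1862, 1752 and 2605 against 3855, 3221 and 4591. Without it, an alternative chosen after seeing the data, the other 8 markers summed to 4358 to 4583 against 4118 to 4391, and the groups overlapped. Genes of radial glia and astrocytes were also measured in each library.

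*Hes5*, a repressor and direct target of Notch, was at 197, 211 and 199 in the sgLacZ libraries and at 112, 114 and 115 in the sgKcna1 libraries. The groups did not overlap, and the 3 sgKcna1 libraries lay within 3 units of each other. Means were 202 ± 7.57 (SD, n = 3) and 114 ± 1.53 (SD, n = 3), a ratio of 0.562 and a log2 fold change of -0.83 on the log2(value + 1) scale used throughout. The level of *Hes5* averaged over the 6 libraries was above that of 94.7% of the genes listed above 0, the highest of the 10 members. Its log2 fold change ranked 1263rd from the lowest among all 19504 genes. With each library left out in turn it stayed between -0.84 and -0.80.

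*Hes6*, which marks cells on the way to becoming neurons, went the other way. It was at 127, 110 and 122 in sgLacZ and at 141, 165 and 153 in sgKcna1. The groups did not overlap, at mean values of 120 ± 8.74 (SD, n = 3) in sgLacZ and 153 ± 12 (SD, n = 3) in sgKcna1. On the log2 scale the difference was 0.35 (SE 0.10), with an adjusted p of 0.0986 from limma over all genes, which missed the threshold of 0.05. With median-of-ratios scaling it was 0.44 with an adjusted p of 0.0488, the only setting in which *Hes6* passed.

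Within a library the scaling cancels from a ratio of 2 genes. The ratio of *Hes5* to *Hes6* was 1.55, 1.92 and 1.63 in sgLacZ and 0.794, 0.691 and 0.752 in sgKcna1. The *Hes5* value was thus the higher of the pair in each sgLacZ library and the lower in each sgKcna1 library. Since *Hes5* was picked for its difference, this ratio is a description as well.

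*Hes1*, the other main Hes repressor downstream of Notch in neural progenitors, was far lower than *Hes5* in these cultures. It was at 7, 5 and 4 in sgLacZ and at 2, 3 and 1 in sgKcna1. The groups did not overlap, but by a single unit, which is the rounding step of the data. The log2 fold change was -1.11 (SE 0.34), with an adjusted p of 0.109 from limma.

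*Hey1*, a target of Notch from the related Hey family, was at 14, 14 and 11 in sgLacZ and at 8, 7 and 7 in sgKcna1. All sgKcna1 libraries were below all sgLacZ libraries. Means were 13 ± 1.73 (SD, n = 3) and 7.33 ± 0.577 (SD, n = 3), a ratio of 0.564, and the log2 fold change was -0.74 (SE 0.18, adjusted p = 0.0646 from limma). The adjusted p was 0.0286 without sgLacZ 3 and 0.0474 when genes with a mean under 1 were left out, and it was above 0.05 in every other setting tried.

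Of the ligands, *Dll1* was at 8, 7 and 3 in sgLacZ and at 1, 3 and 3 in sgKcna1. The value of 3 in sgLacZ 3 made the groups touch, and the log2 fold change of -1.06 (SE 0.43) had an adjusted p of 0.193 from limma. *Dll3*, a divergent family member that acts inside the cell on Notch signalling, was at 6, 6 and 5 against 3, 2 and 3. Its groups did not overlap, with a log2 fold change of -0.87 (SE 0.24, adjusted p = 0.0825 from limma). *Jag1*, a ligand of the Jagged type, was at 3, 3 and 2 in sgLacZ and at 2, 3 and 3 in sgKcna1. Both means were 2.67, and the 95% interval of its log2 fold change ran from -0.63 to 0.63, and differences within it could not be detected at this level.

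The receptor *Notch1* was at 20, 18 and 15 in sgLacZ and at 16, 12 and 16 in sgKcna1, and the groups overlapped. Its log2 fold change was -0.26 (95% interval -0.69 to 0.18, adjusted p = 0.466 from limma). *Notch2* was at 7, 10 and 3 against 4, 3 and 2, again with overlap, and its log2 fold change was -0.85 (SE 0.41, adjusted p = 0.268 from limma). *Rbpj*, the nuclear partner of the cleaved receptor, was at 22, 20 and 30 in sgLacZ and at 21, 16 and 18 in sgKcna1. The overlap rested on sgKcna1 1, and the log2 fold change was -0.36 (95% interval -0.81 to 0.10, adjusted p = 0.296 from limma).

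**Figure D1:**
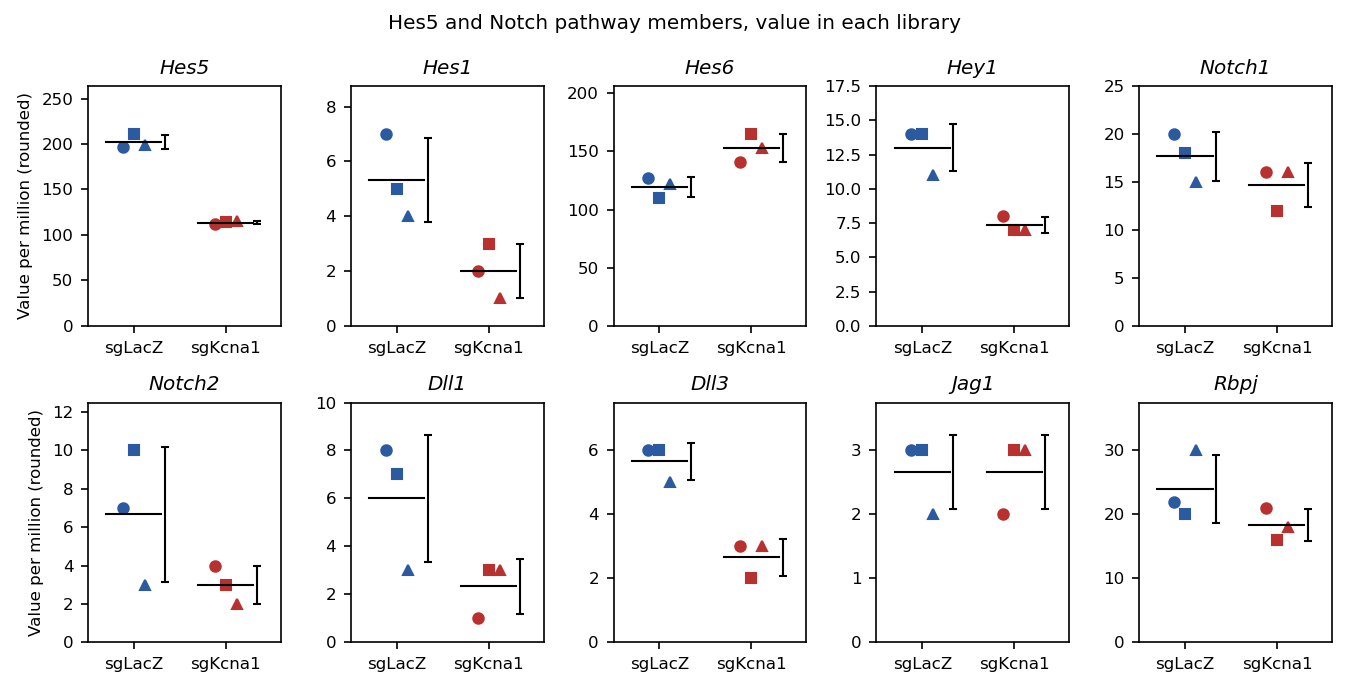
Scaled value of each of the 10 members in each library, with sgLacZ in blue and sgKcna1 in red, replicate 1 as a circle, 2 as a square and 3 as a triangle, the mean as a line and the SD (n = 3) as a bar. *Hes5* separates at about 200 against 114, *Hes6* is higher in sgKcna1, *Hey1*, *Hes1* and *Dll3* are lower without overlap, and *Notch1*, *Notch2*, *Dll1*, *Jag1* and *Rbpj* overlap. Each panel has its own axis, which begins at 0.

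Among the 9 members other than *Hes5*, 0 had an adjusted p under 0.05 in limma, and 5 had an unadjusted p under 0.05, 4 lower (*Hes1*, *Hey1*, *Dll1* and *Dll3*) and 1 higher (*Hes6*) in sgKcna1. Of all 19504 genes, 1.16% had an adjusted p under 0.05 (0.81% lower, 0.349% higher) and 23.2% an unadjusted p under 0.05. Groups did not overlap for 4 of the 9 (3 lower, 1 higher), against 22.2% of all genes (13.3% lower, 8.98% higher). The median log2 fold change of the 9 members was -0.74, against -0.02 over all genes tested, and for the 4 with a mean of at least 10 it was -0.31, against -0.06 over all such genes. With so few genes, added with results of these data known, these shares are given without a test.

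The wider pathway was read from a list of 65 genes, of which 64 were above 0 in at least 1 library and *Heyl* was at 0 in all 6. Apart from *Hes5*, 0 of 63 had an adjusted p under 0.05 in limma, against 1.16% of all genes. An unadjusted p under 0.05 was found for 24, 14 lower and 10 higher, against 23.2% of all genes. Groups did not overlap for 22 of the 63 (13 lower, 9 higher), or 34.9%, against 22.2% of all genes. Among genes with a mean of at least 10 this share was 43.9% in the list (9 lower, 9 higher) and 39.8% over all genes (23.9% lower, 15.9% higher). The median log2 fold change was -0.07 for the 63 genes and 0.06 for the 41 with a mean of at least 10. The values of the pathway lay on both sides of 0, and the count past the threshold turned on the settings. It was 15 of 63 without sgLacZ 3, where 14.2% of all genes passed, and 13 of 63 (5 lower, 8 higher) with median-of-ratios scaling, where 8.81% of all genes passed (3.88% lower, 4.93% higher).

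Of the ligand group, *Dner*, a neuronal transmembrane protein proposed as a Notch ligand, had the highest values and, chosen after its values were seen like *Mib2* and *Neurl1a*, is given for its level. It was at 387, 438 and 405 in sgLacZ and at 408, 418 and 455 in sgKcna1, a log2 fold change of 0.06 (SE 0.09). Of the ubiquitin ligases that drive ligand uptake, *Mib1* was at 54, 50 and 46 against 37, 38 and 38, with a log2 fold change of -0.40 (SE 0.11, adjusted p = 0.0847 from limma). *Neurl1b* was also lower without overlap, at 350, 420 and 333 against 274, 294 and 280, with an adjusted p of 0.0965 from limma. The other 2 ligases of this group, *Mib2* and *Neurl1a*, had log2 fold changes of 0.33 and 0.27.

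The glycosyltransferases, which add sugars to Notch and tune its response to ligands, had log2 fold changes above 0 for 5 of 5 genes. The Fringe enzyme *Rfng* was at 61, 62 and 68 in sgLacZ and at 84, 99 and 84 in sgKcna1, a log2 fold change of 0.47 (SE 0.11, adjusted p = 0.0585 from limma). *Poglut1*, which adds glucose to the receptor, was at 56, 49 and 60 against 67, 63 and 62, with a log2 fold change of 0.22 (SE 0.11). In neither gene did the groups overlap, and neither passed the threshold. In the rest of the 5 genes the groups overlapped, and 1 of these was at 0 or 1 in every library.

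Of the 9 genes for proteases that cut the receptor, 4 had log2 fold changes above 0 and 5 below 0. *Adam10*, the sheddase for ligand-bound Notch, was at 54, 44 and 38 in sgLacZ and at 29, 26 and 23 in sgKcna1, with a log2 fold change of -0.77 (SE 0.16, adjusted p = 0.0556 from limma). *Psen2*, a catalytic subunit of gamma-secretase, was at 26, 21 and 18 against 15, 17 and 15, with a log2 fold change of -0.43 (adjusted p = 0.187 from limma). For both genes the groups did not overlap, and neither passed the threshold.

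In the nucleus, *Kat2a*, a histone acetyltransferase recruited by the Notch complex, was at 23, 31 and 18 in sgLacZ and at 13, 12 and 12 in sgKcna1, with a log2 fold change of -0.87 (SE 0.21, adjusted p = 0.0631 from limma). *Snw1*, a splicing and coactivator protein, was at 159, 183 and 254 against 311, 272 and 366, a log2 fold change of 0.69 (SE 0.19, adjusted p = 0.0879 from limma). The value of 254 came from sgLacZ 3. The corepressors were split. Groucho family members *Tle1* and *Tle3*, which Hes proteins recruit, had log2 fold changes of -0.70 and -0.42, while *Tle2* was at 8, 8 and 19 in sgLacZ and at 34, 22 and 34 in sgKcna1, a log2 fold change of 1.37 (SE 0.35, adjusted p = 0.0726 from limma). *Cir1*, a corepressor that binds Rbpj, had a log2 fold change of 0.62. None of these genes passed the threshold, and for each the groups did not overlap.

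Of the regulators of receptor turnover, *Numbl*, a relative of the Notch inhibitor Numb, was at 77, 84 and 53 in sgLacZ and at 44, 37 and 29 in sgKcna1, with a log2 fold change of -0.93 (SE 0.22, adjusted p = 0.0604 from limma). *Dtx4*, a Deltex ubiquitin ligase, was at 138, 150 and 255 against 317, 304 and 353, a log2 fold change of 0.89 (SE 0.23, adjusted p = 0.0714 from limma). Of the 9 genes in this group, 8 had log2 fold changes below 0, and *Dtx4* alone was above 0. *Nrarp*, a Notch target that feeds back on the receptor, falls under the mean of 10 used to name genes and is given here after its values were seen. It was at 17, 14 and 9 against 5, 4 and 6, with a log2 fold change of -1.23 (SE 0.27, adjusted p = 0.0556 from limma). Among the 22 genes of the list other than *Hes5* whose groups did not overlap, sgLacZ 3 was the control nearest to the sgKcna1 mean in 21. The same count was not made over all genes whose groups did not overlap. Over the untied genes of the list with a mean of at least 10 it was nearest in 27 of 40, or 67.5%, against 64.2% over all such genes.

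**Figure D2:**
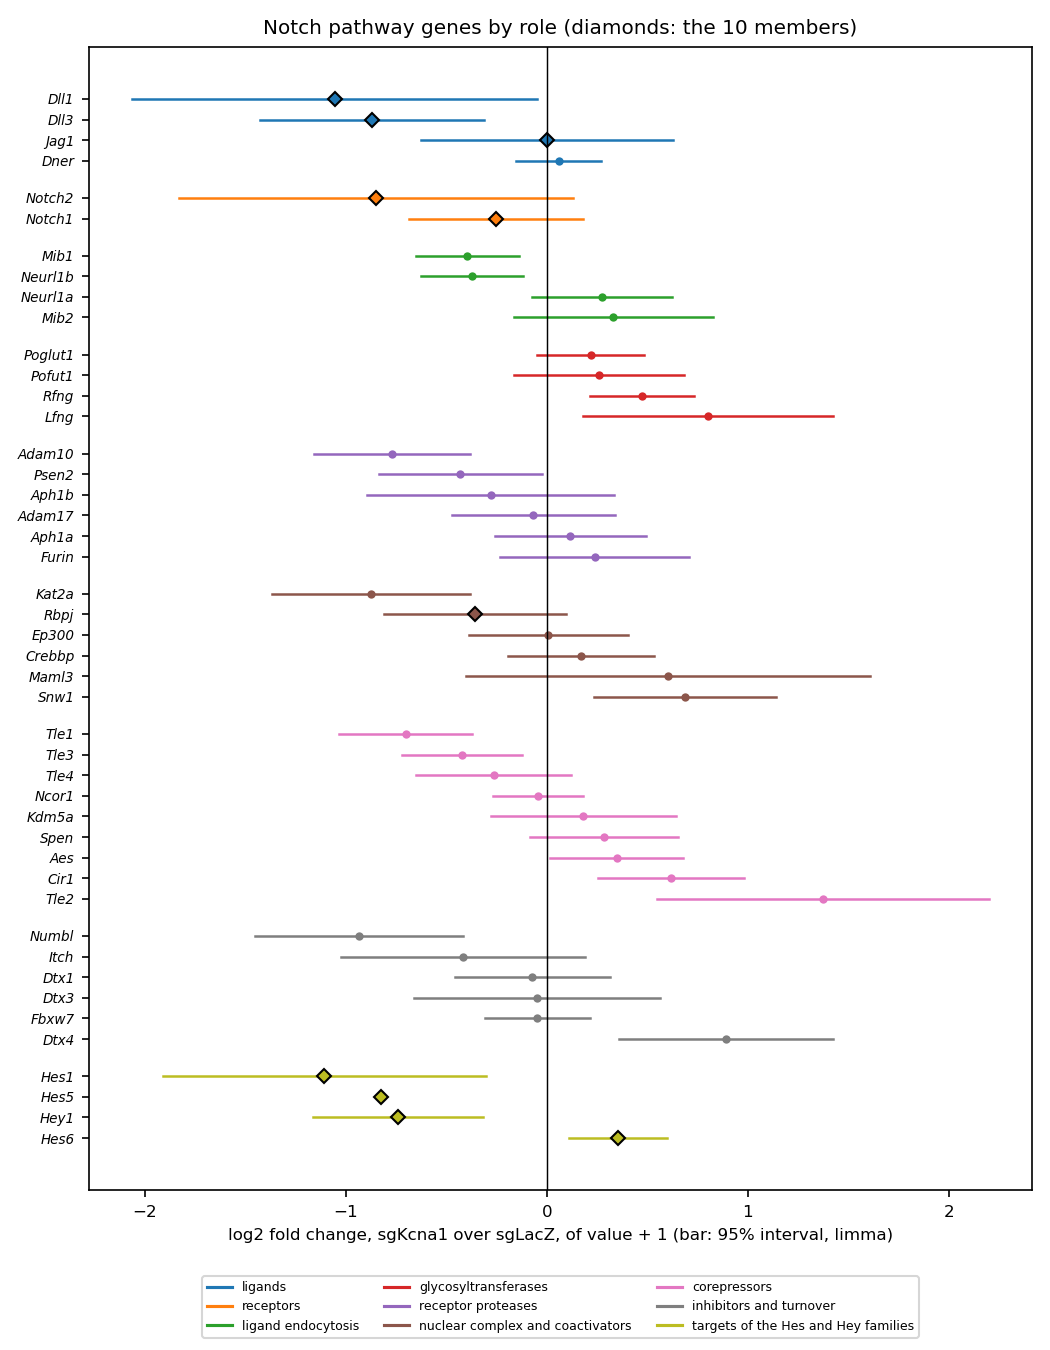
log2 fold change of value + 1, sgKcna1 over sgLacZ, for Notch pathway genes with a mean of at least 10 and the 10 members (diamonds), grouped and coloured by role, with 95% intervals from limma as bars and none for *Hes5*, which was not tested. Genes lie on both sides of 0 in most groups, from *Hes1* at -1.11 to *Tle2* at 1.37, and the glycosyltransferases shown all lie above 0.

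The Id genes encode partners of basic helix-loop-helix proteins that lack a DNA-binding region and, like the Hes repressors, hold back neuronal differentiation. All 4 were lower in sgKcna1 without overlap of the groups, as were 23.9% of all genes with a mean of at least 10. *Id3* was at 95, 81 and 59 in sgLacZ and at 27, 23 and 16 in sgKcna1, with a log2 fold change of -1.79 (SE 0.24, adjusted p = 0.0486 from limma), and it was the only one of the 4 to pass the threshold. The call was lost when any library other than sgLacZ 3 was left out (adjusted p from 0.112 to 0.143 in limma) and without the intensity trend (0.0506). *Id4* was at 23, 16 and 12 against 7, 7 and 6 (log2 fold change -1.19, adjusted p = 0.0556 from limma). *Id2* was at 323, 301 and 223 against 178, 205 and 167 (log2 fold change -0.61, adjusted p = 0.075 from limma). *Id1* was at 19, 17 and 12 against 10, 11 and 10 (log2 fold change -0.56, adjusted p = 0.148 from limma). The median log2 fold change of the 4 genes was -0.90.

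The proneural genes, which Hes repressors act against, were counted in the same way. Of the 9 listed, 7 were above 0, and 0 of these had an adjusted p under 0.05 in limma and 2, *Insm1* and *Neurod6*, had an unadjusted p under 0.05, or 28.6% against 23.2% of all genes. *Insm1*, a factor of newly born neurons, was at 22, 18 and 12 in sgLacZ and at 6, 5 and 7 in sgKcna1, with a log2 fold change of -1.36 (SE 0.25, adjusted p = 0.0531 from limma). *Neurod6*, of excitatory neurons, was at 512, 484 and 471 against 388, 361 and 362, with a log2 fold change of -0.40 (SE 0.08, adjusted p = 0.0556 from limma). The median log2 fold change of the 7 genes was -0.25.

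Markers of the cells that are known to express *Hes5* lay mostly below 0, and a few passed the threshold. Of 13 radial glia and progenitor markers, 11 had log2 fold changes below 0, 7 were lower without overlap, and 2, *Fabp7* and *Sox9*, passed the threshold. Of all genes with a mean of at least 10, 23.9% were lower without overlap, and 0.81% of all genes tested passed the threshold as lower. The sum of the 13 markers was 2563 to 2728 in sgLacZ and 2001 to 2258 in sgKcna1. *Fabp7*, a fatty acid binding protein of radial glia and a known Notch target, was at 635, 471 and 301 in sgLacZ and at 118, 82 and 117 in sgKcna1, with a log2 fold change of -2.09 (SE 0.28, adjusted p = 0.0486 from limma). *Sox9*, a transcription factor of gliogenesis, was at 235, 214 and 210 against 155, 141 and 151 (log2 fold change -0.56, adjusted p = 0.0496 from limma). *Hopx*, *Tnc*, *Slc1a3*, *Nes* and *Ptprz1* were also lower without overlap but did not pass the threshold. *Hopx*, a homeodomain protein of radial glia, was at 78, 54 and 26 against 20, 18 and 10 (log2 fold change -1.58, adjusted p = 0.0795 from limma). *Tnc*, an extracellular matrix protein, was at 76, 81 and 57 against 41, 36 and 31 (log2 fold change -0.96, adjusted p = 0.0527 from limma). The log2 fold change of *Slc1a3* was -0.73 (adjusted p = 0.055 from limma). In the other genes of the list, such as *Sox2*, *Vim* and *Nfia*, the groups overlapped. *Sox2*, a progenitor factor, was at 63, 64 and 94 against 66, 53 and 66, *Vim* at 242, 255 and 210 against 239, 197 and 209, and *Nfia*, a gliogenic factor, at 798, 980 and 1131 against 1174, 1096 and 1008.

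Of 10 astrocyte markers 9 were above 0, with *Gjb6* at 0 in all libraries. Of these, 8 had log2 fold changes below 0, 6 were lower without overlap and 3 passed the threshold. All 6 were among the 7 markers with a mean of at least 10, a level at which 23.9% of all genes were lower without overlap. Of all genes tested, 0.81% passed the threshold as lower. The sum of the 10 markers was 659 to 699 in sgLacZ and 459 to 505 in sgKcna1. *Aqp4*, the water channel of astrocyte endfeet, was at 53, 54 and 39 against 18, 17 and 17, with a log2 fold change of -1.42 (SE 0.16, adjusted p = 0.0486 from limma). *Glul*, glutamine synthetase, was at 133, 126 and 117 against 75, 75 and 74 (log2 fold change -0.74, adjusted p = 0.0486 from limma). *Aldoc* also passed the threshold. *Gfap*, the intermediate filament of astrocytes, was at 63, 45 and 57 against 46, 48 and 70, with a log2 fold change of -0.02 whose sign turned with the scaling. The calls for *Fabp7*, *Sox9*, *Aqp4*, *Glul* and *Aldoc* were each lost when any library other than sgLacZ 3 was left out (adjusted p from 0.112 to 0.143 in limma), and no gene passed in those fits. Without the intensity trend *Aqp4* alone of these 5 passed, the adjusted p of the other 4 being 0.0515 to 0.117. In RNA from whole cultures, fewer cells of a type and less RNA per cell cannot be told apart.

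Ratios of *Hes5* to these lists within a library are a description as well, since they hold the values for which *Hes5* was picked. The ratio of *Hes5* to the astrocyte sum was 0.282, 0.312 and 0.302 in sgLacZ and 0.23, 0.248 and 0.228 in sgKcna1. For the radial glia and progenitor sum the ratios were 0.072, 0.078 and 0.078 against 0.05, 0.056 and 0.057. *Nfia* made up a large part of that sum, and without it, an alternative chosen after seeing the data, the ratios overlapped, at 0.102, 0.121 and 0.139 against 0.103, 0.124 and 0.116. Relative to single genes the picture depended on the gene. The ratio to *Sox9* was 0.924 ± 0.077 (SD, n = 3) in sgLacZ and 0.764 ± 0.043 (SD, n = 3) in sgKcna1 without overlap, whereas the ratio to *Slc1a3*, a glutamate transporter of radial glia and astrocytes, was 0.835 ± 0.137 (SD, n = 3) and 0.775 ± 0.063 (SD, n = 3) with overlap. The ratio to *Aldoc* was 1.16, 1.26 and 1.24 against 0.957, 1.02 and 1.03 without overlap, and that to *Sox2* was 2.85 ± 0.638 (SD, n = 3) and 1.86 ± 0.25 (SD, n = 3) with overlap. Relative to *Glul* the ratios, 1.48 to 1.70 and 1.49 to 1.55, also overlapped. Relative to *Fabp7*, which was lower still, *Hes5* was at 0.31, 0.448 and 0.661 in sgLacZ and at 0.949, 1.39 and 0.983 in sgKcna1.

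Sums for some other marker lists also differed between the groups, though few of their genes passed the threshold, and 13.3% of all genes were lower and 8.98% higher without overlap. The 9 cell cycle genes were all at log2 fold changes below 0, 8 of them without overlap, but 0 had an adjusted p under 0.05 in limma and 8 had an unadjusted p under 0.05. Their sum was 924 to 1030 in sgLacZ and 757 to 835 in sgKcna1, and the ratio of *Hes5* to it was 0.208, 0.228 and 0.193 against 0.134, 0.151 and 0.142, without overlap. *Ccnd2* made up most of that sum, at 823, 803 and 909 against 763, 686 and 734. The ratio without *Ccnd2* was not computed. Of the 9 oligodendrocyte lineage markers 7 were above 0, with 4 lower and 1 higher without overlap and 1, *Olig2*, past the threshold, and the sum was 66 to 98 against 40 to 44. The ratio of *Hes5* to the oligodendrocyte sum overlapped between the groups, at 2.01, 2.29 and 3.02 against 2.55, 2.78 and 2.88. Of the 10 microglia markers 8 were above 0, 5 were higher without overlap and 1, *C1qa*, passed the threshold, and the sum was 23 to 28 against 58 to 78. The calls for *Olig2* and *C1qa* were lost when any library other than sgLacZ 3 was left out (adjusted p from 0.112 to 0.143 in limma), and that for *Olig2* also without the intensity trend (0.0602). Endothelial markers, of which *Cdh5* was at 0 in all libraries, summed to 8 to 9 against 3 to 8, and mural markers to 7 to 10 against 4 to 6, so that genes of vessels, where Notch is also active, were at low values. The 6 excitatory neuron markers summed to 700 to 737 against 651 to 666, with 1 gene lower and 2 higher without overlap. The 6 inhibitory neuron markers summed to 255 to 286 against 241 to 288, with 3 genes lower without overlap. Ependymal markers summed to 14 to 21 against 9 to 16, and 1 of them passed the threshold as lower. The part of these cell types in the *Hes5* difference was not tested.

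**Figure D3:**
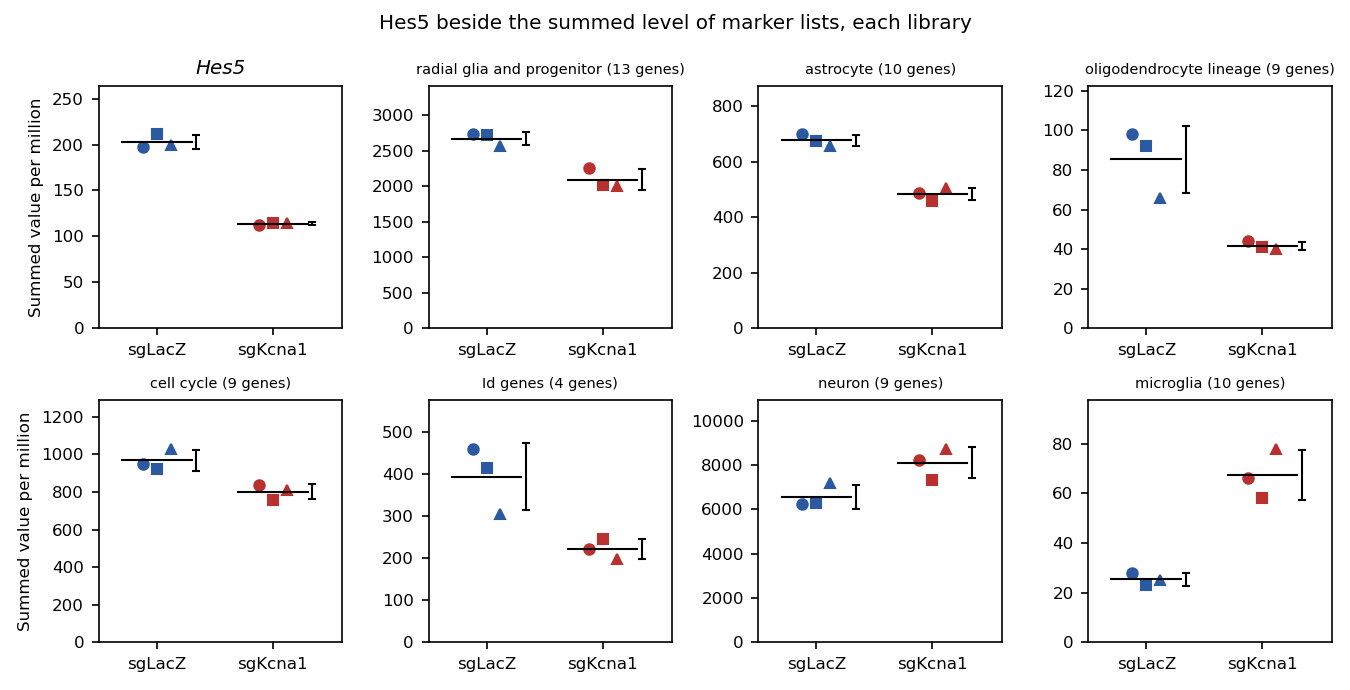
Scaled value of *Hes5* and the summed scaled values of 7 marker lists in each library (symbols as replicates 1 to 3, line for the mean, bar for the SD, n = 3), with axes that begin at 0. The sums for radial glia and progenitors, astrocytes, oligodendrocyte lineage, cell cycle and Id genes are lower in all sgKcna1 libraries, as *Hes5* is, and those for neurons and microglia are higher, for neurons through *Tubb3*, without which the sums overlap (4358 to 4583 against 4118 to 4391).

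The genes whose values over the 6 libraries were most like those of *Hes5* were found by Pearson correlation of log2(value + 1) among 8049 genes with a mean of at least 10. Among the 8 highest were *Armc10* (r = 0.995), *Tmsb10* (0.992), *Sez6l* (0.989), *Aldoc* (0.989), 3830406C13Rik (0.987), *Mthfd1* (0.987) and *Fam53a* (0.987). All 8 were lower in sgKcna1 without overlap. With 2 groups of 3 libraries such a correlation mostly reflects the step between the groups and a small spread within them. *Tmsb10*, which binds actin monomers, was at 158, 160 and 149 against 104, 99 and 100. *Aldoc*, the aldolase of astrocytes, was at 170, 168 and 160 against 117, 112 and 112. *Sez6l*, a neuronal membrane protein, was at 16, 20 and 18 against 8, 7 and 7. Among the members with a mean of at least 10, the correlation with *Hes5* was 0.952 for *Hey1* (167th of the 8049 genes). For *Rbpj* it was 0.629 (2683rd), for *Notch1* 0.59 (2830th) and for *Hes6* -0.906 (7718th). The other members had means under 10 and were not ranked. Their correlations were 0.941 for *Dll3*, 0.831 for *Hes1*, 0.749 for *Dll1*, 0.684 for *Notch2* and 0.038 for *Jag1*. Since *Hes5* was picked for its difference, these values are a description as well.

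**Figure D4:**
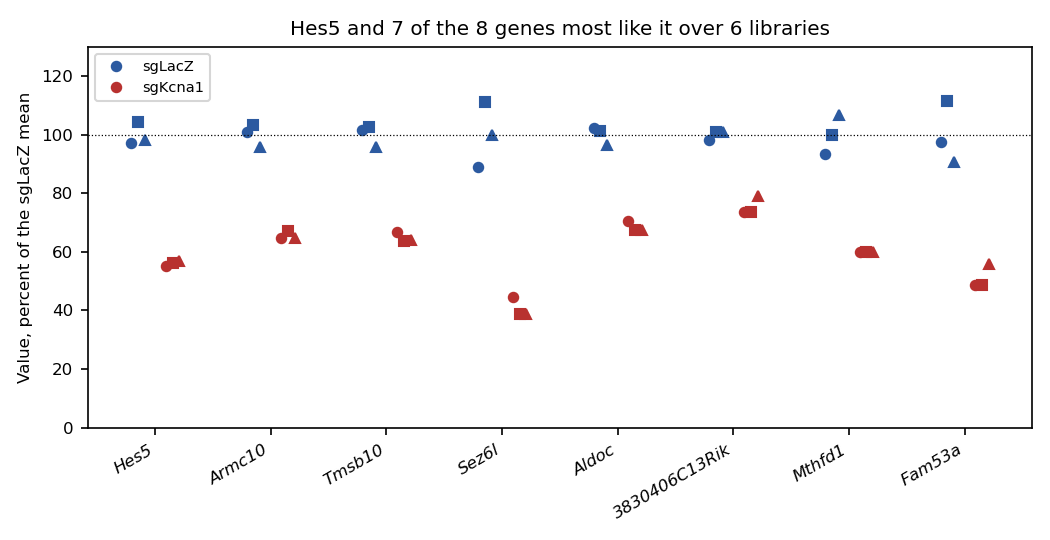
Values of *Hes5* and of 7 of the 8 genes with the highest correlation with it over 6 libraries, each as a percent of its own sgLacZ mean (dotted line at 100), with sgLacZ in blue, sgKcna1 in red and symbols for replicates 1 to 3. In each gene the sgKcna1 libraries lie close together and below all sgLacZ libraries.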

How the data were processed

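RNA of 6 libraries was made with a QuantSeq 3′ kit. The files deposited by the authors pair each gene symbol with a score in whole numbers. These scores sum to between 999047 and 999717 per library, and at means from 4 to 8 their variance was 0.698 (sgLacZ) and 0.499 (sgKcna1) times the mean, so they were taken as rounded per-million values. Read depth is therefore unknown, and no counting intervals are given. The paper names Bowtie2 and NCBI37/mm9, whereas the submitters' processing notes name STAR 2.7, featureCounts, DESeq2 and mm10. The annotation and the use of strand in counting are not given in the sources used here. Gm42418 alone held 15.3% to 20.2% of the values.

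limma 3.58.1 in R 4.3.3 was run on log2(value + 1) of the 19504 genes above 0 in at least 1 library, with an intensity trend and no covariate beside group, and p was adjusted by Benjamini-Hochberg at a threshold of 0.05. A fold change on this scale understates that of low values. The fit was tried on simulated data with a log2 change of 1.5, where 166 of 200 changed genes were recovered and 1 other gene passed. Smaller changes, such as those of the members, were not simulated. Members, lists and tests were chosen with earlier results of these data known. Genes were named by rule: *Kcna1*, the 10 members, genes of the Notch, proneural and Id lists past the threshold or with a mean of at least 10 and no overlap between groups, radial glia and astrocyte markers with a mean of at least 10, and the 8 genes most like *Hes5*. *Dner*, *Mib2*, *Neurl1a*, *Nrarp*, *Tubb3*, *Olig2*, *C1qa* and *Ccnd2* were added after their values were seen. Alternatives were another pseudocount, a filter on the mean, other scalings, no trend, the replicate block and each library left out. Promoters came from RefSeq (GRCm38.p6, 8 of 10 members) and were searched with Python 3.11.15. Some genes that the rule names are not reported here, though list counts, medians and sums include them.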

Additional observations from a re-analysis of the deposited data

How the results depend on the processing

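Over all genes, 226 had an adjusted p under 0.05 (68 higher, 158 lower). The number was 627 with a pseudocount of 0.1, 1543 for genes with a mean of at least 1, 1719 under median-of-ratios scaling (962 of them higher), 868 under upper-quartile scaling (482 of them higher), 1808 without Gm42418, 201 with no intensity trend (117 higher, 84 lower) and 0 to 2711 with each library left out, where only the fit without sgLacZ 3 gave calls. For the 63 Notch pathway genes other than *Hes5* the number was 0, and it was 12 of 61 with the mean filter, 13 with median-of-ratios factors, 3 with upper-quartile factors, 10 without Gm42418, 17 at an adjusted p under 0.1 (where 11.6% of all genes passed) and 0 to 15 with each library left out. The cause was not tested. With the replicate block, 0 of all genes and 0 of the 63 passed. The numbers are not stated to pair the cultures, and deviations of same-numbered libraries correlated at 0.014, 0.114 and 0.154. Upper-quartile factors raised the log2 fold changes of genes with a mean of at least 10 by a median of 0.11.

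The log2 fold change of *Hes5* was -0.74 with median-of-ratios factors and -0.71 with upper-quartile factors. That of *Gfap* became 0.0658 with median-of-ratios factors and 0.0949 with upper-quartile factors, and ranged from -0.2092 to 0.0884 with each library left out. None of the other genes named changed sign in the alternatives run, leaving aside *Jag1*, at 0.00, and *Ccnd2*, not followed there. Low rounded values limit *Hes1*, *Dll1*, *Dll3*, *Jag1* and *Notch2*.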
